A study of Homo sapiens with 3 samples.

Results

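The 27 genes described here make, carry, bind and clear the inhibitory transmitters GABA and glycine. They were chosen by name as members of that signaling system, with earlier results of these data known. All 27 were found among the 32732 genes that the 3 libraries share. GABA is made from glutamate by the decarboxylases GAD1 and GAD2, and both GABA and glycine are loaded into vesicles by the transporter SLC32A1. A neuron that releases glycine also takes it up through SLC6A5, and many inhibitory neurons of the spinal cord and hindbrain use both transmitters. GABA opens chloride channels built from 5 subunits (the GABA-A receptors) and activates the G protein-coupled GABA-B receptor, a pair of GABBR1 and GABBR2, while glycine opens channels of GLRA and GLRB subunits. Gephyrin (GPHN) is the scaffold that holds both kinds of channel at the inhibitory synapse.

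The libraries are single-cell gene counts of BJ cells, an established line of human foreskin fibroblasts labelled wild type, and of the cells induced from them, called FiN in the labels. Day 0 is BJ cells, and days 3 and 5 are FiN cells labelled as induced neurons. All 3 carry the treatment label reprogramming, which for day 0 is at odds with its name. The labels describe induction medium with 10 µM forskolin, which activates adenylyl cyclase and so raises cyclic AMP, a change to maturation medium with the same dose on day 2, and removal of forskolin on day 5. They do not say whether the day 5 cells were taken before or after that removal. No genetic change or transgene is named. Each day is 1 library, so no test between days is possible and every interval below covers counting error only.

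After filtering, 16773, 11454 and 9219 cells remained on days 0, 3 and 5, with a median of 14039, 1324 and 4374 unique molecular identifiers (UMIs, the counted RNA molecules) per cell. Levels are UMIs summed over the cells of a library and scaled to that library's UMIs on the shared genes, as counts per 1e6 UMIs (CPM). The 3 libraries shared between 27 and 63 cell barcodes by pair. Days 0 and 3 are described as nuclei prepared with a chromatin accessibility kit and day 5 as dissociated cells, so day 5 cannot be told apart from its preparation. Days 0 and 3 also differed in makeup, with 6.45% and 0.745% mitochondrial UMIs and 17.0% and 4.29% on ribosomal protein genes (5.01% and 2.13% on day 5), and the part of this in the differences between them was not tested beyond taking both gene groups out of the totals, which left 5 members higher and 2 lower on day 3 as with all genes. The share of UMIs on genes with more than 100 kilobases (kb) of intron was 8.84% on day 0, 13.7% on day 3 and 46.6% on day 5, and MALAT1, a nuclear RNA, held 3.14%, 21.6% and 7.35%. A list of 15 pan-neuronal markers summed to 94.3, 52.6 and 4232 CPM, and the low sum on day 3 is at odds with its label. STMN2, DCX and ELAVL4 had 0 UMIs on day 3. By the call rule given below, 7 of the 15 could be called between days 0 and 3. On day 3 GAP43 and NCAM1 were higher and INA, SYT1 and TUBB3 lower, where 46.3% of all genes were higher and 16.2% lower. Among 12 fibroblast markers 10 were lower on day 5 than on day 3 and 1, TAGLN, was higher. Over all genes tested 29.7% were lower and 40% higher. In summed levels, fewer cells of a type and less RNA per cell cannot be told apart.

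The promoters of 6 members are shown because the results turn on them: GAD2 and SLC6A5, which divide the day 5 cells below, GAD1, SLC32A1 and GLRA3, which were higher in the cells that hold either, and GABBR1, which had the largest ratio of day 3 to day 0 among the members called. Each is the 250 bases before the gene's start in RefSeq (GRCh38.p14), where 24 of the 27 members had an entry (not GABRA3, GABRA5 and GABRD), written 5′ to 3′ on the gene's strand. Capitals mark TGACG, the short form of the cyclic AMP response element, CAGCTG, an E-box of the kind bound by proneural factors, and GTCACGC, the core of a paired box motif, each searched on both strands. The full response element TGACGTCA holds TGACG on both strands.
GAD1 (chr2:170816637-170816886, plus strand): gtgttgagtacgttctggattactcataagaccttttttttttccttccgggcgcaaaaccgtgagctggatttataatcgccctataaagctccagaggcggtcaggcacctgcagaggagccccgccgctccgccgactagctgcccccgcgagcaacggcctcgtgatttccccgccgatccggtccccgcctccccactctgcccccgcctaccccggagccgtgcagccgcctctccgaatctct
GAD2 (chr10:26216122-26216371, plus strand): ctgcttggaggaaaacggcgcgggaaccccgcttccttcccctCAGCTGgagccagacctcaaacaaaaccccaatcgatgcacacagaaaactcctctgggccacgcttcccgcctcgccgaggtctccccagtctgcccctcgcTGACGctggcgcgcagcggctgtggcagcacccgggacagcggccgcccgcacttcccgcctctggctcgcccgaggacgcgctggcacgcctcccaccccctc
SLC32A1 (chr20:38724236-38724485, plus strand): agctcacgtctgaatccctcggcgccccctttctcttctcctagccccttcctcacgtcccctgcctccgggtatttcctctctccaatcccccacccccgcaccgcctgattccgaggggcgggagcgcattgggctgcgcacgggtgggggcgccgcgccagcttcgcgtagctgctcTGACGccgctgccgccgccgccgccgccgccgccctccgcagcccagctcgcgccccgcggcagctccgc
SLC6A5 (chr11:20599358-20599607, plus strand): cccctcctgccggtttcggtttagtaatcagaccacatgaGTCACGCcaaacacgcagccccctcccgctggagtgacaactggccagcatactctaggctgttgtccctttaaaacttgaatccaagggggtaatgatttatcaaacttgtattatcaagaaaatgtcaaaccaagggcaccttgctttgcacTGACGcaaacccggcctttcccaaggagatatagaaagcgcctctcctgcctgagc
GLRA3 (chr4:174829248-174829497, minus strand): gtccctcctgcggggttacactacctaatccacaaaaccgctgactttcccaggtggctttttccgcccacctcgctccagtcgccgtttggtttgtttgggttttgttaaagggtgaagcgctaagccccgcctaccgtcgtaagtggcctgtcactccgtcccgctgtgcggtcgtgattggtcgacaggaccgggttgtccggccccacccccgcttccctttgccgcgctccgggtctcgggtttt
GABBR1 (chr6:29628014-29628263, minus strand): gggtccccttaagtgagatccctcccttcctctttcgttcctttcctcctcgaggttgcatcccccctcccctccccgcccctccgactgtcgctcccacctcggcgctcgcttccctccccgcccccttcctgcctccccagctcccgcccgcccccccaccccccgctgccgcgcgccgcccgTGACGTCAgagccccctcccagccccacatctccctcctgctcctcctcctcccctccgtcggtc

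TGACG was in 8 of the 24 member promoters (GLRB, GLRA1, GABRP, GABBR1, GAD2, SLC6A5, SLC32A1 and GABRE) and in 21.2% of the 35114 promoters of that table. Among the 8, GABBR1 and GABRE were called higher on day 3 than on day 0, and GLRB was called lower. GAD2, SLC32A1, SLC6A5 and GABRP had 0 UMIs on day 3, and GLRA1 had 9. ABAT, GPHN and GABRB1, also called higher on day 3, had no TGACG in this window. Any link of these letters to the levels was not tested. The full element was in GABBR1 alone, against 1.65% of all promoters. CAGCTG was in GAD2, GABRG3 and GABRQ, against 14.0% of all, and GTCACGC in SLC6A5 alone, against 2.20%. These matches describe letters in a window, not sites that a factor was seen to bind. RefSeq and GENCODE 29 differ on these starts: the windows of GAD1 and GABBR1 lie wholly inside the GENCODE gene, and those of GAD2, SLC32A1, SLC6A5 and GLRA3 run partly into it. Other starts of the 6 genes are not covered.

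At least 3 UMIs were found for 15 of the 27 members on day 0, 15 on day 3 and 26 on day 5. At least 1 CPM was reached by 9 members on day 0, 8 on day 3 and 23 on day 5. A call of higher or lower asked for 3 things: a 2-fold ratio or more, 1 CPM or more in the higher group, and exact 95% Poisson intervals that lay apart. Genes that had 3 UMIs or more in 1 group and reached 1 CPM there could be called. From day 3 to day 5, 20 of the 23 members that could be called were higher, against 40% of the 18882 genes tested, and 2 were lower, against 29.7%. Their median log2 ratio was 4.09, against 0.29 over all genes tested. All 23 had reached 1 CPM on day 5 and only 8 on day 3, so most could be called only because day 5 was high, and the count and median are a description.

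**Figure D1:**
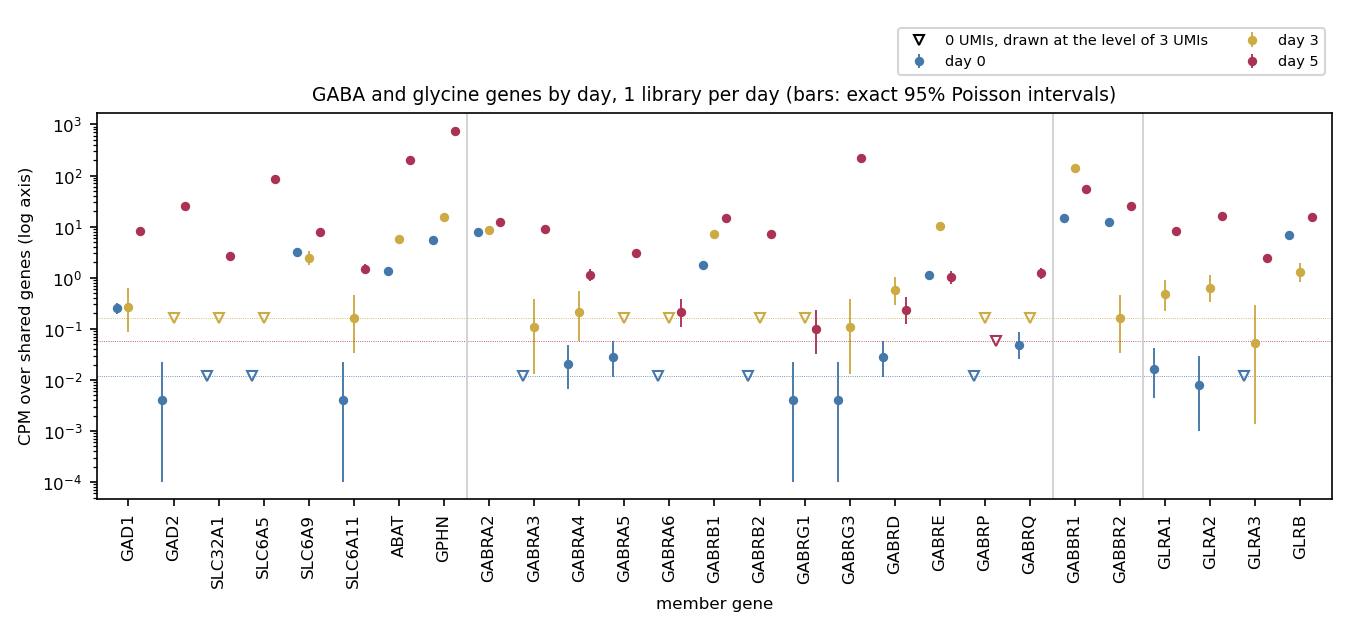
CPM of the 27 members (log axis) in the libraries of day 0, day 3 and day 5, with exact 95% Poisson intervals as bars. Open triangles are genes at 0 UMIs, drawn at the level that 3 UMIs would give, and GAD2, SLC32A1 and SLC6A5 stand at 24.8, 2.67 and 87.1 CPM on day 5 after 0 UMIs on day 3.

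The genes that make and load the transmitters went from near 0 to clear levels on day 5. SLC6A5 had 0 UMIs on days 0 and 3 and 4435 on day 5 (87.1 CPM, 84.5 to 89.7), at least 543-fold above day 3. GAD2 had 1 UMI on day 0, 0 on day 3 and 1261 on day 5 (24.8 CPM, 23.4 to 26.2), at least 154-fold above day 3. In both earlier libraries these genes lay under the floor of 3 UMIs, which is 0.160 CPM on day 3 and 0.0122 CPM on day 0. SLC32A1, with only 2.34 kb of intron, had 0, 0 and 136 UMIs (2.67 CPM on day 5, 2.24 to 3.16), at least 16.7-fold above day 3. GAD1 differed from these in having RNA from the start, with 63 UMIs on day 0 (0.256 CPM), 5 on day 3 (0.267 CPM) and 421 on day 5 (8.27 CPM, 7.5 to 9.10), 30.9-fold above day 3 (13.2 to 95.8).

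Free RNA in the day 5 droplets bears on the low members. In barcodes of 500 to 1000 UMIs, too few to be called cells, SLC32A1 stood at 7.05 CPM, above its level in cells, and GAD2 stood at 22.9 CPM, close to its 24.8 CPM in cells. SLC6A5 stood at 43.9 CPM, against 87.1 CPM in cells. SLC6A9, GABRQ and GABRA4 also had higher levels in these barcodes (12.6, 3.43 and 1.29 CPM) than in cells (7.93, 1.22 and 1.14 CPM). So did GABRD (0.449 and 0.236 CPM) and GABRG1 (0.238 and 0.0982 CPM). The part that free RNA plays in the sums over cells was not tested beyond subtracting that profile at 10% of the cells' UMIs, which left 19 members higher on day 5 than on day 3.

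The genes that clear the transmitters differed in the size of their ratios. ABAT, the transaminase that breaks GABA down, went from 1.38 CPM on day 0 and 5.72 on day 3 to 199 CPM on day 5 (196 to 203), 34.9-fold above day 3 (28.8 to 42.6). It was found in 53.9% of day 5 cells. SLC6A9, the glycine transporter of glia and other cells, differed least of the carriers, with 3.18, 2.46 and 7.93 CPM. Its day 5 level was 3.23-fold that of day 3 (2.37 to 4.48). SLC6A11, a GABA transporter best known from astrocytes, had 1, 3 and 77 UMIs, the last equal to 1.51 CPM (1.19 to 1.89).

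GPHN had the largest CPM of all members on day 5. Its level was 5.52 CPM on day 0, 15.4 on day 3 and 748 on day 5 (741 to 756), with a UMI in 85.8% of day 5 cells. Since the gene spans 674397 bases, levels between members were also compared per 100 kb of gene. On that scale ABAT came first on day 5 with 181 CPM per 100 kb, followed by SLC6A5 with 145, GPHN with 111, GABBR1 with 69.4, SLC32A1 with 54.4 and GABRG3 with 38.5. SLC6A5, found in 14.0% of cells, stood above GPHN on that scale only, with 87.1 CPM against 748 CPM before it. The scale moves short genes such as SLC32A1 (2.67 CPM) up. Whether introns were counted is not known, so whether the scale suits these counts was not tested.

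Among the GABA-A receptor subunits GABRG3 stood apart. It had 1 UMI on day 0, 2 on day 3 and 11203 on day 5 (220 CPM, 216 to 224), a ratio of 2058 to day 3 with an interval of 570 to 16997. The other gamma subunit listed, GABRG1, had 1, 0 and 5 UMIs. GABRB2, 1 of the beta subunits, had 0 UMIs on both earlier days and 364 on day 5 (7.15 CPM, 6.43 to 7.92), at least 44.6-fold above day 3. GABRB1, by contrast, was present throughout, with 1.79, 7.16 and 14.7 CPM. Its day 5 level was 2.05-fold that of day 3 (1.71 to 2.49), a call that was lost when cells were thinned to 1000 UMIs (log2 ratio 0.39).

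The alpha subunits split in the same way between new and old. GABRA3 had 0 and 2 UMIs on days 0 and 3 and 464 on day 5 (9.11 CPM, 8.30 to 9.98). GABRA5 had 7, 0 and 156 UMIs, with 3.06 CPM on day 5 (2.60 to 3.58), and GABRA4 had 5, 4 and 58 UMIs, with 1.14 CPM on day 5 (0.865 to 1.47). GABRA2 was the exception: BJ cells already held 8.02 CPM (7.67 to 8.38), day 3 had 8.39 CPM (7.13 to 9.81) and day 5 had 12.3 CPM (11.3 to 13.3), so it was called in none of the 3 comparisons between days. GABRA6 reached only 11 UMIs on day 5. GABRA4 overlaps GABRB1, and GABRA6 overlaps GABRB2, on opposite strands, GABRA5 overlaps 1 opposite-strand gene and GABRG3 overlaps 3. GABBR1 overlaps 1 gene on its own strand, which no strand setting would resolve, and 2 on the other. The sources used here do not give the strand setting, so reads of such pairs may not be separable.

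GABRE, the epsilon subunit, was the one GABA-A receptor gene called in both directions between days. It stood at 1.14 CPM on day 0 (1.01 to 1.28), 10.3 CPM on day 3 (8.86 to 11.8) and 1.02 CPM on day 5 (0.763 to 1.34), 9.03-fold up to day 3 (7.48 to 10.9) and then 10.0-fold lower. Days 0 and 5 overlap and day 3 lies above both. GABRQ, the theta subunit, had 12, 0 and 62 UMIs, with 1.22 CPM on day 5 (0.933 to 1.56). GABRD, the delta subunit of receptors outside synapses, stayed at 7, 11 and 12 UMIs. GABRP, the pi subunit known from tissues outside the nervous system, had 0 UMIs in every library, where exact 95% intervals reach 0.0150, 0.197 and 0.0724 CPM on days 0, 3 and 5.

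The partners in the GABA-B receptor had opposite courses. GABBR1, which binds GABA, stood at 14.5 CPM on day 0 (14.0 to 15), 139 on day 3 (133 to 144) and 54.3 on day 5 (52.3 to 56.4). That was 9.56-fold higher on day 3 than on day 0 (9.08 to 10.1), then 2.55-fold lower on day 5. GABBR2, which couples the receptor to G proteins, stood at 12.1 CPM on day 0 (11.6 to 12.5), had only 3 UMIs on day 3 (0.160 CPM, 0.0331 to 0.469) and stood at 25.6 CPM on day 5 (24.2 to 27). It was thus 75.3-fold lower on day 3 than on day 0, and day 3 was the one day on which the partners were far apart, at levels not scaled to gene length.

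All 4 glycine receptor subunits were higher on day 5 than on day 3. GLRA2, the alpha subunit known from immature neurons, had 2 and 12 UMIs on days 0 and 3 and 835 on day 5 (16.4 CPM, 15.3 to 17.5), 25.6-fold above day 3 (14.6 to 49.7). GLRA1, the alpha subunit of mature spinal synapses, had 4, 9 and 418 UMIs, with 8.21 CPM on day 5 (7.44 to 9.03). GLRA3 had 0, 1 and 122 UMIs, with 2.40 CPM on day 5 (1.99 to 2.86). The beta subunit GLRB, which binds gephyrin, was in BJ cells at 6.72 CPM (6.40 to 7.05), lower on day 3 at 1.28 CPM (0.822 to 1.91) and at 15.1 CPM on day 5 (14.0 to 16.2).

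From day 0 to day 3 the members showed no common direction. Of 9 that could be called, 5 were higher (ABAT, GPHN, GABRB1, GABRE and GABBR1), against 46.3% of 15335 genes, and 2 were lower (GABBR2 and GLRB), against 16.2%. Both shares of members, 55.6% and 22.2%, rest on 9 genes and lie near those of all genes. This comparison depends on scaling: the median over all genes was 0.83 on the log2 scale with total UMIs and -0.49 with TMM factors, under which 24.3% of all genes were higher and 38.6% lower. With TMM, 2 members stayed higher (GABBR1 and GABRE) and 4 were lower (GABBR2, GLRB, GABRA2 and SLC6A9). Scaling by the median of ratios put the median over all genes at -0.06 and left 4 members higher (ABAT, GABBR1, GABRB1 and GABRE) and 3 lower (GABBR2, GLRB and SLC6A9). ABAT (ratio 4.15) and GABRB1 (ratio 4) thus lost the call with TMM only, at log2 ratios of 0.85 and 0.80, and GPHN (ratio 2.79) under both, at 0.28 and 0.67. GABBR1, GABRE, GABBR2 and GLRB kept it under all 3 scalings, and GABRE and GABBR1 lay 2.30 and 2.50 above the median of their own intron length class.

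Against day 0, 21 of the 23 members that could be called were higher on day 5, against 55.5% of 17879 genes, and 0 were lower, against 22.2%. The exceptions were GABRA2, with a ratio of 1.53 (1.40 to 1.68), and GABRE, with 0.899 (0.655 to 1.21). Since 9 members had reached 1 CPM on day 0 and 23 on day 5, most could be called only because day 5 was high, and day 5 enters both comparisons. TMM factors left 15 members higher, with GABRE lower, and moved the shares of all genes to 41.3% higher and 36.2% lower. GABBR2, 2.12-fold higher with total UMIs, had a log2 ratio of -0.052 under TMM, GLRB, 2.24-fold higher, had 0.030, and SLC6A9, 2.50-fold higher, had 0.18. GABBR1, 3.75-fold higher with total UMIs, also fell short of a 2-fold ratio under TMM. GABRA4 and GABRQ fell under 1 CPM there, so 21 members could be called.

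Intron length was read beside these ratios because day 5 differed from day 3 by length across the whole table. Over 18882 genes the median log2 ratio of day 5 to day 3 went from -0.99 for genes with under 20 kb of intron, through 0.38 (20 to 50 kb), 1.09 (50 to 100 kb), 1.86 (100 to 200 kb) and 3.20 (200 to 500 kb), to 5.63 for genes over 500 kb. In the longest class 93.5% of genes were called higher, and in the shortest 22.8%. Spearman's rho between intron length and the ratio was 0.50 over all genes and 0.40 over the 23 members, genes that share the same libraries. Of those members 18 lay above the median of their own length class. Most of the 23 could be called only because day 5 was high, so this count is a description as well.

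**Figure D2:**
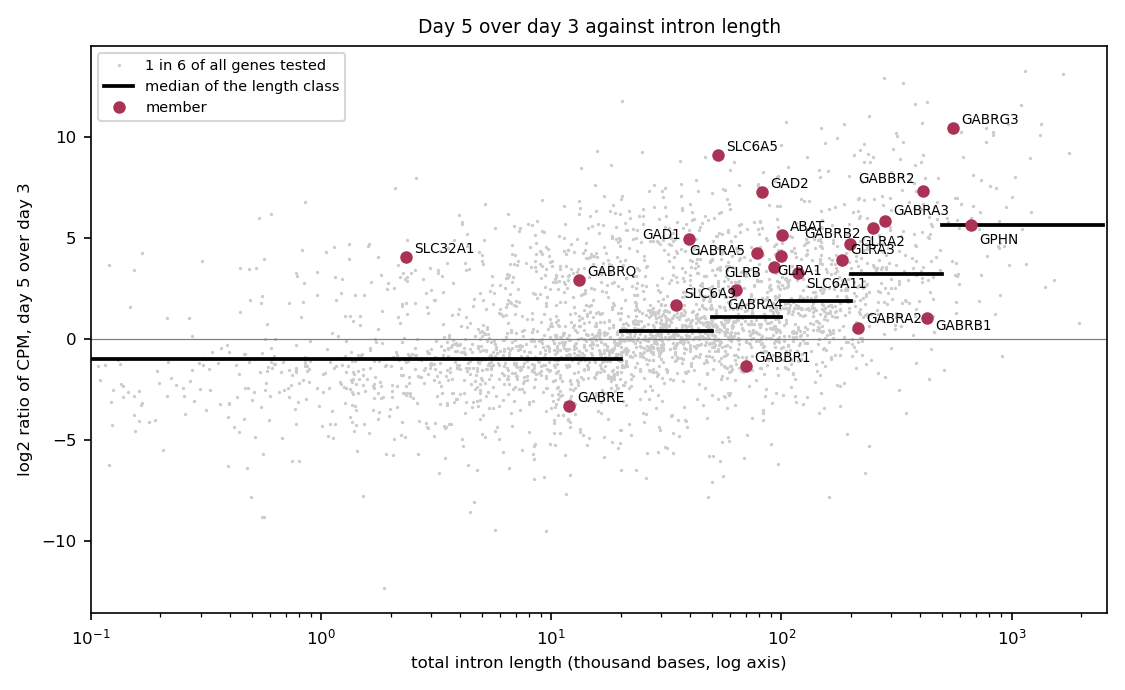
Log2 ratio of CPM of day 5 to day 3 against total intron length in kilobases (log axis), for the 23 members that could be called (red) and 1 in 6 of all genes (grey), with the median of each of 6 length classes as black bars. SLC6A5, GAD2 and SLC32A1 lie far above the bars of their classes, GPHN lies on its bar, and GABRA2 and GABRB1 lie below theirs.

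Read this way, the members fell into unlike groups. SLC6A5 (52.8 kb of intron) and GAD2 (82.0 kb) had log2 ratios of 9.09 and 7.27 in a class with a median of 1.09, above 99.4% and 97.4% of its genes. SLC32A1, GAD1 and GABRQ, with 2.34, 39.7 and 13.2 kb of intron, lay above 92.8%, 92.1% and 86.7% of theirs. GPHN, with 668 kb, had a log2 ratio of 5.60 beside a class median of 5.63 and lay above only 48.8% of its class, so its 48.6-fold ratio was that of a gene of its length. GABRG3, with 558 kb, lay above 89.7% of the same class at 10.42, a value with its 2 UMIs on day 3 set at 3. GABRB1 and GABRA2, with 430 and 215 kb, lay above 18.5% and 15.2% of a class with a median of 3.20, and GABBR1 and GABRE above 9.85% and 13.4% of theirs. Against day 0, 16 of 23 members lay above their class median, with GPHN above 45.4% of its class, SLC6A5 above 99.3% and GABBR2 above 11.5%. There too most of the 23 could be called only because day 5 was high.

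The 9219 day 5 cells were then divided by GAD2 or SLC6A5. At least 1 UMI of either was found in 1601 cells (17.4%), of which 492 held both, 314 GAD2 only and 795 SLC6A5 only. Those cells were deeper, with a median of 5035 UMIs against 4249.5 in the other 7618. The share with either gene went from 12.4% in the shallowest of 4 equal groups of cells by depth to 24.9% in the deepest. SLC6A5 reached 24 UMIs in a single cell and at least 10 in 79 cells, while GAD2 reached 7 and was seen as 1 UMI in 66.9% of its cells.

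Cells with one of GAD2 and SLC6A5 held the other more often than the remaining cells did. Of the 806 cells with GAD2, 61.0% held SLC6A5 (57.6 to 64.4, exact binomial interval), against 9.45% of the other cells (8.83 to 10.1). In cells with SLC6A5, GAD2 stood at 87.5 CPM against 10.3 CPM in cells without, a ratio of 8.52 (7.57 to 9.59). With every cell thinned to 2000 UMIs that ratio was 9.38 (7.68 to 11.4). Barcodes that hold 2 cells were not removed, and their part in this overlap was not tested.

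Cells with both genes also had the largest levels of the other presynaptic members. For GAD1 their interval overlaps that of GAD2 only, and for SLC32A1 that of SLC6A5 only. They were also deeper, with a median of 6114 UMIs against 5025 with GAD2 only and 4552 with SLC6A5 only. Of them 85.0% lay in clusters 6 and 8, described below, against 44.9% and 57.9%. The part of depth and cluster in these levels was not tested. GAD1 stood at 27.2 CPM in cells with both (22.7 to 32.4), 19.9 with GAD2 only (14.4 to 26.9), 15.4 with SLC6A5 only (12.1 to 19.4) and 4.48 with neither (3.84 to 5.2). SLC32A1 stood at 11.1 (8.27 to 14.5), 4.27 (1.95 to 8.11), 6.59 (4.51 to 9.30) and 1.10 CPM (0.793 to 1.48) in the same order. For both genes each class with GAD2 or SLC6A5 lay above the cells with neither. All 5 UMIs of GABRG1 on day 5 were in cells with both genes, in 0.813% of them.

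Of the other 25 members, 21 could be called between cells with and without GAD2 or SLC6A5. There 3 were higher, against 4.42% of 17482 genes, and 1 was lower, against 2.7%, with a median log2 ratio of 0.34 over the members and -0.10 over all genes. SLC32A1 stood at 7.98 CPM with and 1.10 without, a ratio of 7.28 (5.02 to 10.7). GAD1 stood at 21.0 and 4.48 CPM, a ratio of 4.69 (3.85 to 5.72), and GLRA3 at 5.75 and 1.40 CPM, a ratio of 4.10 (2.83 to 5.97). So the genes that make and load GABA were called with the divider, and of the receptor genes GLRA3 alone was. GAD1 was called higher within each of the 4 depth groups, from 26.8 against 4.14 CPM in the shallowest to 19.1 against 5.37 CPM in the deepest, SLC32A1 in the 3 deeper groups and GLRA3 in the 2 deepest.

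**Figure D3:**
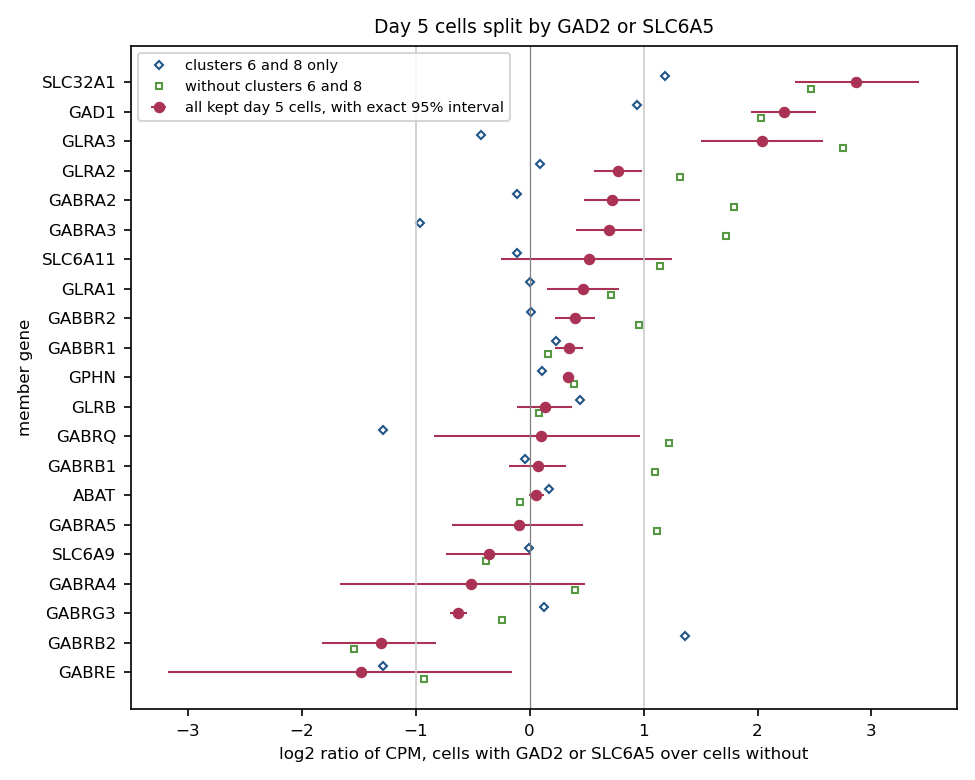
Log2 ratio of CPM of day 5 cells with GAD2 or SLC6A5 to cells without, for the 21 members that could be called, with exact 95% intervals as bars (red). Open diamonds give the same within clusters 6 and 8 only, and open squares without those clusters. SLC32A1, GAD1 and GLRA3 lie beyond 1 in all cells, and GLRA3 lies at -0.43 within clusters 6 and 8.

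GABRB2 went the other way, with 3.34 CPM in cells with GAD2 or SLC6A5 and 8.28 CPM without, a ratio of 0.404 (0.282 to 0.564). Among the 4 depth groups it was called lower in the deepest alone, with log2 ratios of -0.28, -0.62, -0.86 and -1.84 from the shallowest on. The call was also lost in cells thinned to 2000 UMIs (log2 ratio -0.94) in cells of middling depth (-0.76) and within the neuron-like clusters described next (-0.13). GABRG3 stood at 155 CPM with and 239 CPM without, a ratio of 0.649 (0.617 to 0.682) that missed the 2-fold rule and passed it in thinned cells (log2 ratio -1.06) and in the 2 shallowest depth groups (-1.28 and -1.10). ABAT (206 and 198 CPM), GLRB (16.2 and 14.7 CPM) and GABRB1 (15.3 and 14.5 CPM) had intervals that overlap. In 7 other members the intervals lay apart, higher with GAD2 or SLC6A5, at ratios under 2. These were GLRA2 (24.2 and 14.1 CPM), GABRA2 (17.7 and 10.7 CPM), GABRA3 (12.9 and 7.97 CPM), GLRA1 (10.5 and 7.54 CPM), GABBR2 (31.5 and 23.9 CPM), GABBR1 (65.1 and 51.1 CPM) and GPHN (893 and 705 CPM). Intron length went less closely with the ratio here, with Spearman's rho 0.19 over all genes and 0.009 over the members, and GAD1, SLC32A1 and GLRA3 lay above 99.6%, 99.8% and 99.3% of their length classes.

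The divided cells were mostly of 2 clusters. Cells were clustered within the library, and 5 of 11 day 5 clusters were neuron-like by at least 3 of the 15 pan-neuronal markers at 2-fold over the rest. Cluster 6 (1068 cells) led with SLC6A5, PAX8, GAD2 and PAX2, and cluster 8 (403 cells) with RELN, NXPH1 and ADARB2. These 2 held 63.6% of the cells with GAD2 or SLC6A5 and 5.93% of those without, and 80.8% of SLC6A5 UMIs and 74.2% of GAD2 UMIs in 16.0% of the cells. The clusters were made from the same cells and genes, so the levels that follow are a description.

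SLC6A5 stood at 520 CPM in cluster 8, 330 in cluster 6, 125 in cluster 3, 31.4 in cluster 5 and between 5.17 and 13.8 in the other 7. GAD2 stood at 155, 82.7 and 35.6 CPM in clusters 8, 6 and 3, and SLC32A1 at 15.4, 7.27 and 4.13 CPM. Clusters 6 and 8 carried all 3, and cluster 3 less of each. GAD1 stood at 26.8 CPM in cluster 3 (21.9 to 32.5) and 21.1 CPM in clusters 6 and 8 together (18.3 to 24.1), intervals that overlap. In cells thinned to 1000 UMIs GAD1 was found in 2.20% of cluster 3 (0.889 to 4.48) and 2.99% of clusters 6 and 8 (2.18 to 3.99). Cluster 5, led by genes that include the glutamate carrier SLC17A6, held GAD1 at 17.6 CPM beside GAD2 at 9.56 CPM. Thinned to 1000 UMIs, SLC6A5 was found in 29.4% of cells of clusters 6 and 8 (27.1 to 31.8; 59.7% unthinned), 10.4% of cluster 3 (7.25 to 14.3; 35.5% unthinned), 1.68% of clusters 5 and 7 (0.996 to 2.64; 6.05% unthinned) and 0.928% of the 6 other clusters (0.707 to 1.2; 3.63% unthinned). The last, in cells with a median of 4263.5 UMIs against 4945 in clusters 6 and 8, is the level to read the others against.

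**Figure D4:**
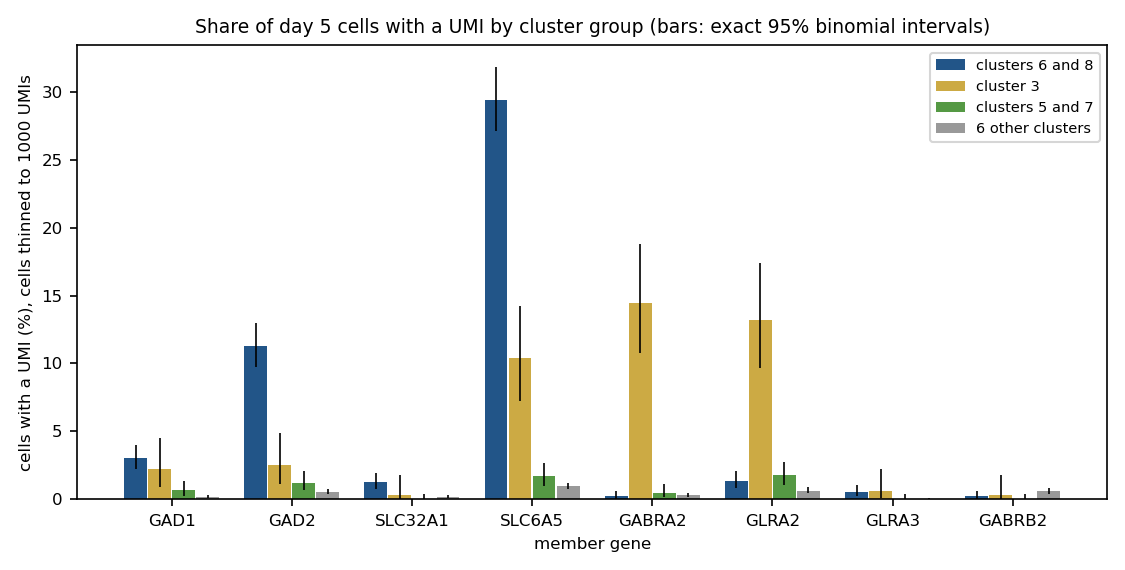
Share of day 5 cells with at least 1 UMI of 8 members after each cell was thinned to 1000 UMIs, in clusters 6 and 8, cluster 3, clusters 5 and 7 and the 6 other clusters, with exact 95% binomial intervals. SLC6A5 and GAD2 stand highest in clusters 6 and 8 (29.4% and 11.3%), and GABRA2 and GLRA2 in cluster 3 (14.5% and 13.2%).

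Receptor subunits had another center. Cluster 3, with 318 cells and a median of 9619.5 UMIs, held GABRA2 at 124 CPM, which is 77.0% of its day 5 UMIs in 3.45% of the cells, and GABRA2 is among the genes that lead that cluster. GABRA3 (70.9 CPM), GABRB1 (96.7 CPM), GABRA5 (18.8 CPM), GLRA2 (97.5 CPM) and GABBR2 (90.3 CPM) were each at their highest there. Depth and doublets, which were not removed, may bear on a cluster of such deep cells, and their part was not tested. GABRG3 and GABRB2 peaked elsewhere, at 403 and 17.3 CPM in cluster 4, the largest with 2734 cells and not neuron-like, where GABRA2 stood at 2.18 CPM. GPHN was at 519 CPM or more in every cluster but cluster 9 (137 CPM), and ABAT ranged from 124 CPM in cluster 5 to 336 CPM in cluster 0.

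**Figure D5:**
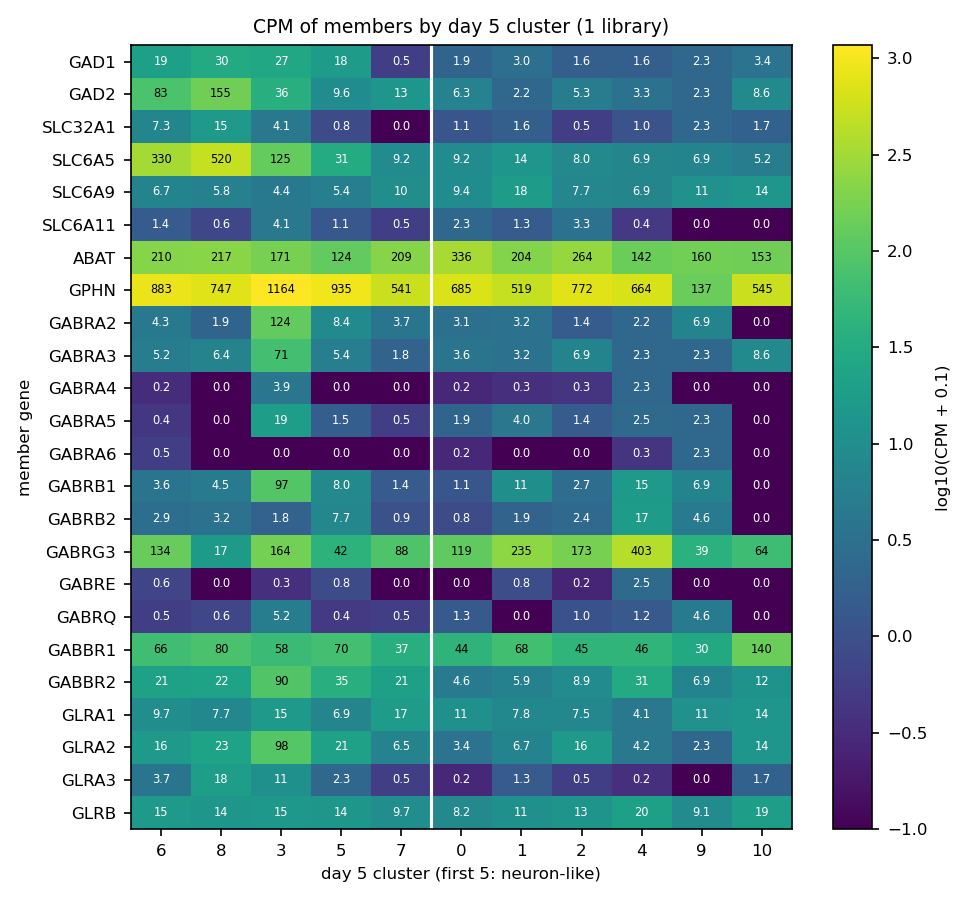
CPM of the members that reach 1 CPM in a day 5 cluster, with color as log10 of CPM plus 0.1 and the CPM printed in each cell; the first 5 columns are the neuron-like clusters. GAD2 and SLC6A5 are highest in clusters 8 and 6, GABRA2, GABRA3, GABRB1 and GLRA2 in cluster 3, and GABRG3 and GABRB2 in cluster 4.

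The makeup of the clusters moved with the split. Within clusters 6 and 8 alone only SLC32A1 was higher in cells with GAD2 or SLC6A5 (log2 ratio 1.19), while GAD1 stood at 0.94 and GLRA3 at -0.43. Within all 5 neuron-like clusters SLC32A1 was again the single member higher (log2 ratio 2.42), and GAD1 stood at 0.85. Without clusters 6 and 8, where 135 of the 318 cells of cluster 3 held GAD2 or SLC6A5 at a median of 12455 UMIs, 8 members were higher: GABRA2, GABRA3, GABRA5, GABRB1, GAD1, GLRA2, GLRA3 and SLC32A1. SLC32A1 is thus the one member called higher in all 3 of these sets of cells.

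Lists of genes that work beside the members were counted by the same rule. Among 17 transcription factors of inhibitory neurons that could be called, 9 were higher in cells with GAD2 or SLC6A5 and 0 lower, where 4.42% of all genes were higher and 2.7% lower, shares that also stand behind the marker counts that follow. PAX8 stood at 59.8 and 4.25 CPM (ratio 14.1, 11.9 to 16.7), PAX2, which marks inhibitory neurons of the dorsal spinal cord, at 200 and 28.5 CPM (7, 6.52 to 7.53), and LHX1 at 67.0 and 20.8 CPM (3.22, 2.92 to 3.56). By cluster PAX2 was at 353 CPM in cluster 8 and 205 in cluster 6. It was also at 145 CPM in cluster 5, which SLC17A6 helps to lead, and 102 in cluster 7. Of 6 glutamatergic markers 0 were higher and 0 lower, with SLC17A6 at 22.6 and 21.5 CPM and GRIN2A at 228 and 454 CPM, the latter just short of a 2-fold ratio. The sum over that list was largest in cluster 4, not neuron-like, at 1056 CPM with SLC17A6 at 3.98 CPM. In cluster 5 the sum was 280 CPM with SLC17A6 at 166 CPM. The list, GRIN2A included, is thus not read as a measure of glutamatergic cells. Pan-neuronal markers moved with the split, 8 of 15 higher and 0 lower, and their part in the ratios above was not tested. Of 11 fibroblast markers 4 were lower and 0 higher. Beyond the lists, the largest ratios after PAX8 were those of CACNA2D3 (11.1), NRXN3 (9.72), RELN (7.98) and ADARB2 (7.29), then PAX2, SAMD5 (6.85), NXPH1 (6.24), PLD5 (6.15) and LRTM1 (5.95).

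Among 24 partners of inhibitory synapses 14 were higher on day 5 than on day 3 and 4 lower, where 40% of all genes were higher and 29.7% lower. Some of the genes named here are long, with 827 kb of intron in MDGA2 and 301 kb in KCTD16, in classes where 93.5% and 81.6% of genes were higher. MDGA2, a binding partner of neuroligins, had 0 UMIs on day 3 and stood at 194 CPM on day 5, and LRRC4B, a synaptic adhesion gene, had 2 UMIs and then 56.9 CPM, while NLGN2, the neuroligin of inhibitory synapses, was among the 4 that were lower. NLGN2 has 9.44 kb of intron, in a class where 49.7% of genes were lower. In the split 5 of 24 were higher and 0 lower (4.42% and 2.7% of all genes), with MDGA2 at 343 and 150 CPM and LHFPL4, which holds GABA-A receptors at synapses, at 19.5 and 8.94 CPM. Of 9 GABA-B partners 7 were higher on day 5 than on day 3 and 1 lower, with KCTD16, an auxiliary subunit, at 0.748 and 117 CPM. In the split 2 of 9 were higher and 2 lower, KCTD8 at 111 and 47.1 CPM and RGS6, a regulator of G proteins, at 156 and 344 CPM.

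Chloride transport genes set how GABA acts, and 7 of 10 were higher on day 5 than on day 3 with 0 lower (40% and 29.7% of all genes, the shares for each count between these days). SLC12A2, which brings chloride in, stood at 31.6 CPM on day 3 and 157 on day 5 (ratio 4.95, 4.55 to 5.39). In the split 1 of 10 was higher and 0 lower: that was SLC12A5, the chloride exporter of mature neurons. Of 15 genes of transmitter metabolism and other carriers 5 were higher on day 5 than on day 3 and 3 lower, neither above the share of all genes. GLDC, of the glycine cleavage system, had 1 UMI on day 3 and stood at 132 CPM on day 5. In the split 0 of 15 were higher and 1 lower, MAOB at 14.2 and 34.9 CPM. Among 9 other receptors of the same family 7 were higher on day 5 and 2 lower, and CHRNA7 had 1 UMI on day 3 and 28.7 CPM on day 5. Of 19 inhibitory neuron factors 14 were higher on day 5 than on day 3 and 5 lower, with PAX2 at 1 UMI and then 67.7 CPM. SLC12A2 (95.3 kb of intron) and PAX2 (88.1 kb) lie in a length class where 51.9% of genes were higher. For the classes of GLDC (104 kb) and CHRNA7 (229 kb) that share was 67.2% and 81.6%. The counts of these lists were not set against shares by intron length.

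Between days 0 and 3 4 of the 6 pathway lists had calls in both directions, counted with total UMIs: synapse partners 7 higher and 2 lower of 18, GABA-B partners 2 and 2 of 5, chloride transport 2 and 0 of 8, metabolism 1 and 3 of 13, related receptors 3 and 0 of 3 and inhibitory factors 3 and 1 of 6. Over all genes 46.3% were higher and 16.2% lower with total UMIs, and 24.3% and 38.6% with TMM, so these counts are not read further. Among GABA-B partners KCNJ6, a potassium channel that the receptor opens, stood at 0.803 CPM on day 0 and 19 on day 3, and GNAO1, a G protein alpha subunit, at 0.101 and 23.7 CPM. Within day 3, cluster 2 (2531 cells), led by RORB and GNAO1, had GPHN at 31.9 CPM (26.0 to 38.7) against 13.2, 10.6 and 13.1 CPM in clusters 0, 1 and 3. GABBR1 stood at 83.8 CPM there (74.1 to 94.5) against 149.5, 149 and 155 CPM in the same clusters, so every day 3 cluster lay above the 25.3 CPM of GABBR1 in the highest day 0 cluster.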

How the data were processed

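Per the file headers, the authors deposited UMI counts per gene and barcode, not normalized, for 33538, 33538 and 36601 genes, and 17504, 11488 and 2037119 barcodes on days 0, 3 and 5. Per the submitters' processing notes reads were handled with Cell Ranger 4.0.0 on hg38 (GRCh38). The header of day 0 names another software version than those of days 3 and 5. Whether introns were counted, and on which strand, the sources used here do not give. Day 5 barcodes were called cells at 2155 UMIs or more, and kept cells of all days had 500 UMIs and 300 genes or more, with 20% mitochondrial UMIs at most. No doublet caller was run and doublets were kept. Kept cells held 246471041, 18710180 and 50922769 UMIs on shared genes. Each group is 1 library, so no test was run. A group under 3 UMIs was set at 3 UMIs for calls, medians and readings against intron length, so ratios against 0 UMIs are lower bounds. Other printed ratios against 1 to 3 UMIs use the UMIs themselves. Intron lengths, gene span less exons, are from GENCODE 29 (GRCh38), which matched all 32732 shared genes. Clustering used scanpy 1.11.5 (2000 variable genes, 30 components, 15 neighbours, Leiden resolution 0.5). A neuron-like marker also needed 10 CPM, a minimum set after values were seen. The members, 6 pathway and 6 marker lists and rules were chosen with earlier results of these data known. List genes named had the largest ratios at 10 CPM or more, up to 4 per list, and the 10 largest ratios of the split are named. SLC12A5 and NLGN2 fall outside that rule and were named after their values were seen. The list genes INSYN1 and INSYN2A had no match. The call rule was tested on simulated counts. TMM factors came from edgeR 4.0.16.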

Additional observations from a re-analysis of the deposited data

How the results depend on the processing

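No paired analysis was possible because each group is 1 library. Alternatives were other scalings, cell filters, depths, call rules and splits, and analyses of clusters 6 and 8 alone or left out were added after the data were seen. From day 3 to day 5 members higher numbered 18 to 20 except with a 10 CPM minimum (9), and members lower 2 except with a 3-fold rule (1). From day 0 to day 3 members higher were 2 and lower 4 with TMM factors, 3 and 1 with a 10 CPM minimum, and 10 were higher with no minimum. Against day 0, 10 members were higher on day 5 with a 10 CPM minimum, and 1 was lower with TMM, which put GABBR2 at a log2 ratio of -0.052. In the split 1 member was higher in neuron-like clusters, with a 10 CPM minimum and in clusters 6 and 8 alone, and 8 were higher without those clusters. There 0 were lower in cells of middling depth, in every day 5 barcode of 1000 UMIs, with a 10 CPM minimum, with a 3-fold rule and in clusters 6 and 8 alone. Within clusters 6 and 8 GABRB2 had a log2 ratio of 1.36 (-0.17 to 3.34) and GLRA3 -0.43 (-1.23 to 0.42), with the cause not tested. In thinned cells the 1 member lower was GABRG3 in place of GABRB2. Reading length as gene span put 19 of 23 members above their class median from day 3 to day 5. Most of the 23 could be called only because day 5 was high, so that count is a description. Depth limits day 3 most, where 3 UMIs are 0.160 CPM.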
